A study of Mus musculus with 6 samples.

Results

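Genes of antigen presentation and of the response to interferon-gamma were followed in inguinal white adipose tissue of Atf7 knockout mice. The set was a list of 37 genes, chosen with earlier results of these data known. It held major histocompatibility complex (MHC) genes, genes that cut and load peptides, the guanylate-binding proteins (GBPs) and the immunity-related GTPases (IRGs). The interferon-gamma receptor and a few further induced genes completed it. STAT, IRF and chemokine genes were left out of it. Of the 37 genes, 28 had a probe set annotated to them alone and were tested among 19937 genes, 8 occurred only in probe sets annotated to several genes, and Serpina3g was not analysed here. The 8 were H2-K1, H2-D1, H2-DMb1, Gbp2, Gbp6, Igtp, Irgm2 and Tgtp1.

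RNA of the fat depot was hybridised to 1 array per animal for 3 Atf7 knockout mice (KO) and for 3 wild-type littermates (WT). All 6 were C57BL/6 males aged 5 weeks from heterozygous parents, kept free of specific pathogens, and no group received a treatment. The comparison asks how loss of Atf7, a transcription factor of the ATF/CREB family, bears on the fat depot. The labels name the genotype only, so which exons the allele lacks is not known here.

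Interferon-gamma is made by T cells and natural killer cells and acts through a receptor of the chains Ifngr1 and Ifngr2. The signal switches on MHC class I, which shows peptides from inside the cell to CD8 T cells and is found on nearly all cells, and MHC class II, which shows peptides from outside to CD4 T cells and belongs mainly to B cells, dendritic cells and macrophages. It also induces GBPs and IRGs, GTPases that attack the vacuoles of intracellular microbes. In the inguinal depot, a lymph node lies within the fat, so B and T cells can be part of a dissected sample.

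Values are log2 expression, so a difference of 1 is a doubling of the signal, and differences are KO minus WT. The 6 arrays had medians from 6.41 to 6.49, and their number limits the precision. Atf7 probe set 10433032 read 6.22, 6.53 and 6.49 in the KO arrays, against 8.95, 9.20 and 9.07 in WT, and the groups did not overlap. The second Atf7 probe set, 10433034, read 9.23, 9.10 and 9.42 in KO, against 9.34, 9.39 and 9.52 in WT, and the groups overlapped. Adipocyte markers were bright in every array, with Adipoq between 12.24 and 12.68 in KO and between 12.37 and 12.52 in WT. The array of KO replicate 3 stood apart, with correlations across probe sets of 0.969 to 0.981 with the other arrays, where the others among themselves had 0.984 to 0.990. The mean centred level of 22 B and T cell markers, here the lymphocyte score, was -0.09, 0.66 and -2.52 in KO replicates 1, 2 and 3, against 0.67, 0.51 and 0.78 in WT. Of the B cell markers 10 of 11 and of the T cell markers 11 of 11 had a lower mean in KO. The level of 5 markers of lymph node stroma was -0.12, 0.54 and -2.42 in KO, against 0.45, 0.71 and 0.83 in WT. Log2 array values have no zero, but the B cell genes Cd79a and Ms4a1 read 5.61 and 4.58 in KO replicate 3, below the median gene at 6.89. In whole tissue, fewer cells of a type and less RNA per cell cannot be told apart.

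Promoter stretches are shown for the members that carry the clearest sequence features, so that the values of class II genes, B2m and the GTPases can be set beside them. They come from RefSeq on GRCm38.p6, whose table held 26 of the 37 genes with 30 promoters, each covering 250 bases before to 50 after a start site. Capitals mark matches to 4 motifs on either strand. These were TTCNNNGAA (the GAS element, found in promoters of interferon-gamma targets), GAAANNGAA (the core of the interferon response element, bound by IRF proteins), TGACGTCA (the full CRE, bound by ATF/CREB proteins) and CCAAT (the Y box of MHC promoters, bound by NF-Y). The first stretch is H2-Aa at chr17:34287844-34287923 on the minus strand. On the plus strand follow H2-Eb1 at chr17:34305767-34305846, H2-DMb1 at chr17:34153091-34153170 and B2m at chr2:122147537-122147646.
H2-Aa: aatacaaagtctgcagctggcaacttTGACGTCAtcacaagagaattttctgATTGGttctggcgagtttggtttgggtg
H2-Eb1: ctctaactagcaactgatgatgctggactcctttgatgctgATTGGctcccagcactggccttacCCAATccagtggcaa
H2-DMb1: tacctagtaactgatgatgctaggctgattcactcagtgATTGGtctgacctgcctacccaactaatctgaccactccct
B2m: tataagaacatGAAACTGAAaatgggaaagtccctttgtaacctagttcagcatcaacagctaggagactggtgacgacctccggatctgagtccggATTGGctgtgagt

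The Y box was present in all 4 class II genes and all 3 class I genes with an entry, where 41.1% of all genes in the table hold it. Both receptor genes and both peptide loading genes with an entry held it too, so it was not particular to MHC genes. It was in 1 of 5 immunoproteasome, 1 of 4 GBP, 1 of 4 IRG and 1 of 2 further induced genes. A match counted anywhere in the window, and it began at -48 from the start site in H2-Aa but at -198 in H2-DMa. H2-Aa, the class II alpha chain, was the 1 member whose promoter held the full CRE, which 1.79% of all 32851 promoters hold. Among the GTPases, all 4 GBP and all 4 IRG genes with an entry held the interferon response element core, where 9.76% of all genes do. Over the 30 member promoters, 11 held that core (8.56% of all promoters), 7 the GAS element (8.3%) and 16 the Y box (37.4%). The IRG promoters are shown because 3 carry both interferon motifs at the same spacing. Igtp lies at chr11:58199486-58199545 and Irgm2 at chr11:58214877-58214936, both on the plus strand, Tgtp1 at chr11:48992297-48992356 on the minus strand and Gbp2 at chr3:142620583-142620642 on the plus strand.
Igtp: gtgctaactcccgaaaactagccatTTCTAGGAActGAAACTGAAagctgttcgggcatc
Irgm2: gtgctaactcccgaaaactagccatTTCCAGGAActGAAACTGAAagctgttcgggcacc
Tgtp1: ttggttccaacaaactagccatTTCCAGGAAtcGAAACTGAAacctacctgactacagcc
Gbp2: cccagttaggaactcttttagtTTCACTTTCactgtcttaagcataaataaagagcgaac

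In Igtp, Irgm2 and Tgtp1 the core began 11 bases after the first base of the GAS element, an arrangement that 9 of the 32851 promoters had (0.0274%) and that was looked for after these sequences were seen. The printed stretches of Igtp and Irgm2 are nearly identical, so these genes are not independent examples of the spacing. A match is a description of letters and not a measured binding site.

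No member passed the test. With limma and Benjamini-Hochberg adjustment over all genes, 0 of 28 members had an adjusted p under 0.05, as did 0% of all genes, and the smallest adjusted p among the members was 0.622. Atf7 entered this gene table by its brighter probe set, 10433034, so the drop at 10433032 is not part of that share. At an unadjusted p under 0.05, 1 member was lower in KO and 0 were higher, where 2.48% of all genes were lower and 4.99% higher. All KO arrays lay below all WT arrays in 2 members, Tap1 and Nlrc5, and above in 0, where 5.97% of all genes were below and 7.96% above. The mean was lower in KO for 23 of 28 members, where it was lower for 9362 of all 19937 genes. The median difference of the members was -0.15, beside a median of 0.01 over all genes. The members' median was -0.10 without KO replicate 3, with 25 of 28 lower, and -0.25 without KO replicate 2, where 9 members were lower at an unadjusted p under 0.05 (8.47% of all genes were lower in that setting). Of the 28 members, 16 had their lowest value in KO replicate 3 and 5 their highest, against 20.7% and 31.4% of all genes. After adjusting for the lymphocyte score the median was -0.07, and 0 members were lower at an unadjusted p under 0.05, as were 1.64% of all genes in that setting. The score averaged -0.65 in KO and 0.65 in WT, mostly through KO replicate 3. With 6 arrays, this adjustment here and below therefore cannot cleanly separate lymphocyte content from genotype.

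**Figure D1:**
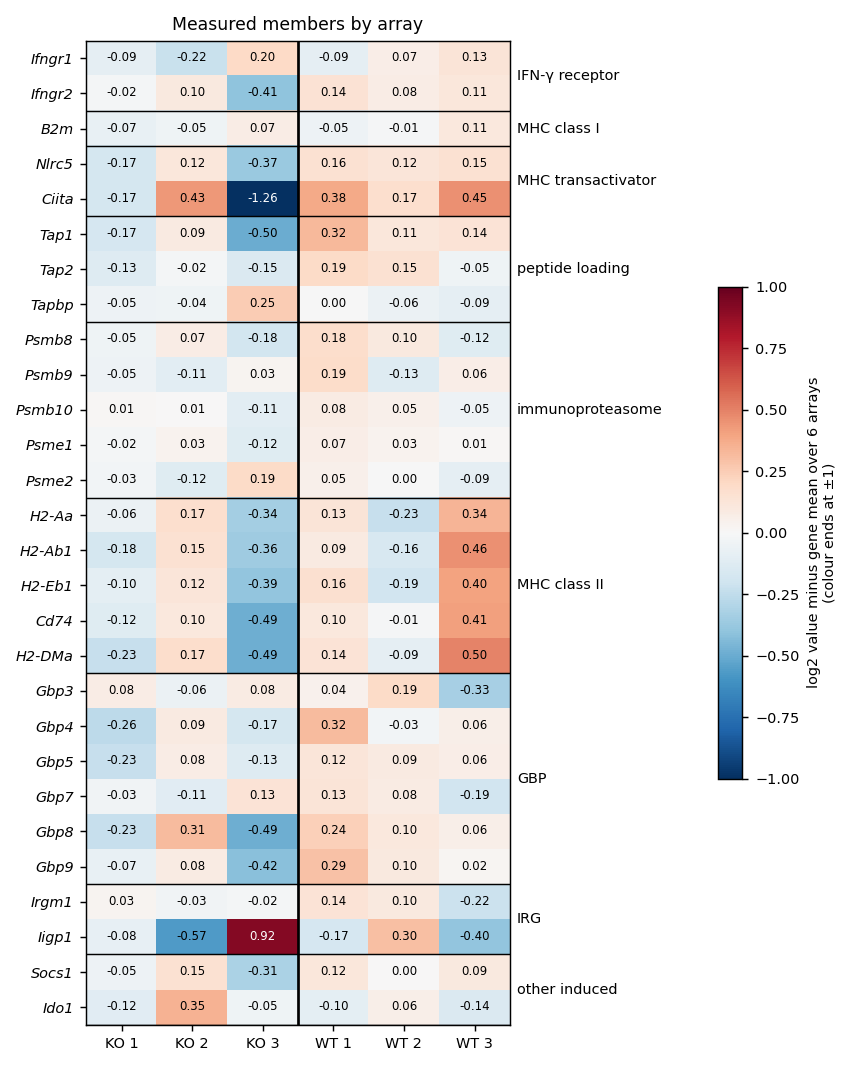
Log2 value of each measured member (rows, grouped by role) minus its mean over the 6 arrays (columns, KO left of WT), with the colour scale ending at 1 in either direction. Blue cells gather in KO replicate 3, the lowest array for 16 of 28 members, while Iigp1 is at its highest there.

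The 2 receptor chains had slightly lower means in KO. Ifngr1, the ligand-binding chain, differed by -0.08 (SE 0.13), and Ifngr2, the chain that carries the signal with it, by -0.22 (SE 0.14). Ifngr1 read 10.77, 10.63 and 11.06 in KO, against 10.77, 10.93 and 10.99 in WT, and the KO arrays held both its lowest and its highest value. The log2 level of Ifngr2 was 10.57, 10.69 and 10.19 in KO, against 10.74, 10.67 and 10.71 in WT. The low array was KO replicate 3, KO replicate 2 lay inside the WT range, and the Ifngr2 difference was -0.07 without KO replicate 3. Ifng, named after its values were seen, was dim, between 5.74 and 5.99 in KO and between 5.61 and 6.08 in WT.

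MHC class I varied little across the 6 mice. B2m, the light chain shared by all class I molecules, read 12.72, 12.74 and 12.86 in KO, against 12.74, 12.78 and 12.89 in WT. Each group's replicate 3 was its highest array and the groups overlapped almost wholly. The B2m difference was -0.03 (95% interval -0.25 to 0.19, limma's adjusted p 0.934). Class I heavy chains were read by 2 probe sets that are annotated to both H2-K1 and H2-D1, so neither gene has a value of its own. One of them, 10444780, read 11.81, 11.78 and 11.95 in KO, against 11.83, 11.65 and 11.85 in WT. The other, 10450075, read 11.85, 11.84 and 11.84 in KO, against 11.91, 11.75 and 11.88 in WT. Differences of these probe sets were 0.07 and -0.00, with 95% intervals of -0.18 to 0.32 and -0.22 to 0.22. KO replicate 3, the array with the lowest lymphocyte score, was the highest array in 10444780. In 10450075 it read 11.838, just under the other KO arrays at 11.844 and 11.845 and inside the WT range.

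Both MHC transactivators had lower means in KO. Nlrc5, which activates class I promoters, read 9.65, 9.94 and 9.45 in KO, against 9.98, 9.94 and 9.97 in WT. The groups did not overlap, but KO replicate 2 at 9.937 and WT replicate 2 at 9.938 were nearly equal. The Nlrc5 difference was -0.28 (SE 0.13, 95% interval -0.59 to 0.03, adjusted p 0.622) and -0.17 without KO replicate 3. Nlrc5 had 19 probe sets, and all 19 had a lower mean in KO, with differences from -0.39 to -0.08, a median of -0.27 and 1 of them at an unadjusted p under 0.05 in the fit over all probe sets. These 19 were read on the same 6 arrays and are not replicates. Ciita, the master activator of class II genes, read 8.24, 8.85 and 7.15 in KO, against 8.80, 8.58 and 8.87 in WT. The value of KO replicate 3 was far below all others, while KO replicate 2 lay within the WT range. The Ciita difference was -0.67 (SE 0.39, adjusted p 0.628), -0.21 without KO replicate 3 and 0.00 after adjusting for the lymphocyte score.

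**Figure D2:**
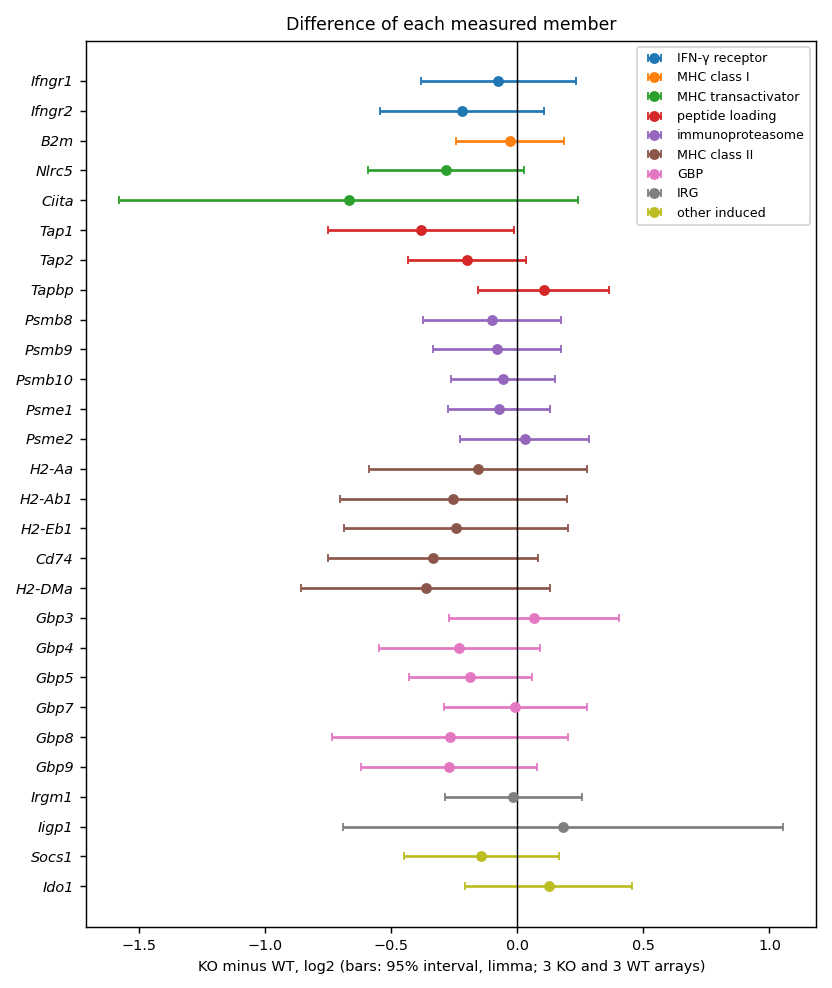
Difference in log2 expression, KO minus WT, for the 28 measured members (points, coloured by role) with limma's 95% intervals (bars). The Tap1 interval alone lies wholly below 0, and the widest intervals are those of Ciita and Iigp1.

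Peptide transport and loading gave the one member below the unadjusted threshold. Tap1 and Tap2 form the transporter that carries peptides into the endoplasmic reticulum, and Tapbp is tapasin, which bridges that transporter to class I. Tap1 read 9.46, 9.72 and 9.13 in KO, against 9.95, 9.74 and 9.77 in WT. The groups did not overlap, though KO replicate 2 lay just under the lowest WT array. The Tap1 difference was -0.38 (SE 0.16, 95% interval -0.75 to -0.01), with an unadjusted p of 0.0437 and an adjusted p of 0.622 from limma, and -0.23 without KO replicate 3. Tap2 differed by -0.20 (SE 0.10) and kept a difference of -0.18 without that array. Tapbp read 10.34, 10.35 and 10.65 in KO, against 10.39, 10.33 and 10.30 in WT, with a difference of 0.10 (SE 0.11). Its KO replicate 3 was the high array, and without it the Tapbp difference was 0.00. The 2 probe sets annotated to Tapbp together with the ribosomal protein gene Rps3a1 had differences of -0.24 (SE 0.15) and -0.28 (SE 0.20), with KO replicate 3 the lowest array in both. The probe sets naming Tapbp therefore differed in sign, but the values of the shared ones cannot be assigned to Tapbp.

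Immunoproteasome genes differed by at most 0.10 between the groups. Psmb8, Psmb9 and Psmb10 are the subunits that replace the constitutive catalytic ones under interferon-gamma, and Psme1 and Psme2 form the PA28 activator that opens the proteasome. Psmb8 read 8.86, 8.98 and 8.72 in KO, against 9.08, 9.00 and 8.78 in WT, and Psme2 read 10.33, 10.24 and 10.56 in KO, against 10.41, 10.36 and 10.27 in WT. In both genes the groups overlapped. The differences of all 5 genes ran from -0.10 for Psmb8 through -0.08 for Psmb9, -0.07 for Psme1 and -0.06 for Psmb10 to 0.03 for Psme2, with standard errors of 0.09 to 0.12 and adjusted p-values of at least 0.795. A probe set annotated to both Psme2 and Psme2b differed by -0.13 (SE 0.10), opposite in sign to that of Psme2 alone. Psmb9 lies back to back with Tap1, and their promoter windows on GRCm38.p6 overlap. Of 15 constitutive proteasome genes, 12 had a higher mean in KO, with a median difference of 0.11. At an unadjusted p under 0.05, where 4.99% of all genes were higher and 2.48% lower, 0 of the 15 were higher and 1 was lower. That was Psme3, the nuclear activator PA28 gamma, at -0.27 (SE 0.10, adjusted p 0.622). Its groups did not overlap, where 5.97% of all genes had all KO arrays below all WT arrays. Psmb6, the constitutive subunit that Psmb9 replaces, differed by 0.17 (SE 0.11).

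Class II genes varied among mice of both genotypes. H2-Aa, which codes for the alpha chain and carries the CRE shown above, read 12.06, 12.29 and 11.78 in KO, against 12.25, 11.89 and 12.46 in WT. Cd74, the invariant chain that guards the class II groove, read 11.88, 12.10 and 11.51 in KO, against 12.11, 11.99 and 12.41 in WT. H2-DMa, part of the editor that swaps peptides into class II, read 9.60, 10.01 and 9.34 in KO, against 9.97, 9.74 and 10.33 in WT. In all 3 genes KO replicate 3 was the lowest array and WT replicate 3 the highest, and the groups overlapped. Differences of the 5 measured genes were -0.16 for H2-Aa, -0.24 for H2-Eb1, -0.25 for H2-Ab1, -0.34 for Cd74 and -0.36 for H2-DMa, with standard errors of 0.18 to 0.21 and adjusted p-values of 0.624 to 0.802. H2-Eb1 and H2-Ab1 code for class II beta chains. Without KO replicate 3 the median of the 5 was -0.14, where it was -0.25 with all arrays. Leaving out WT replicate 2 gave -0.40, and the median was -0.10 without WT replicate 3 and -0.06 after adjusting for the lymphocyte score.

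The probe set annotated to both H2-DMb1 and H2-DMb2, the beta chains of the peptide editor, spread far more widely. It read 9.62, 10.24 and 7.98 in KO, against 10.29, 10.03 and 10.42 in WT. The low array by a wide margin was KO replicate 3, KO replicate 2 lay within the WT range, and the difference was -0.97 (SE 0.53, adjusted p 0.702 over all probe sets). Class II genes outside the list that are typical of B cells read alike. H2-Ob, the beta chain of the DM inhibitor, read 9.82, 10.52 and 6.90 in KO, against 10.64, 10.37 and 10.77 in WT. H2-Eb2 read 7.89, 8.49 and 5.58 in KO, against 8.68, 8.39 and 8.68 in WT. Both had KO replicate 3 as the low array, as did H2-Oa, the alpha chain of that inhibitor, at 6.11, a gene singled out after its values were seen. Ifi30, a thiol reductase that unfolds antigens for class II, differed by -0.51 (SE 0.24). Of the 13 class II route genes outside the list, 10 had a lower mean in KO and the median difference was -0.22. At an unadjusted p under 0.05 there were 0 of them, where 2.48% of all genes were lower and 4.99% higher. The lymphocyte score was -2.52 in KO replicate 3, and the part of lymphocytes in these class II values was not tested.

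**Figure D3:**
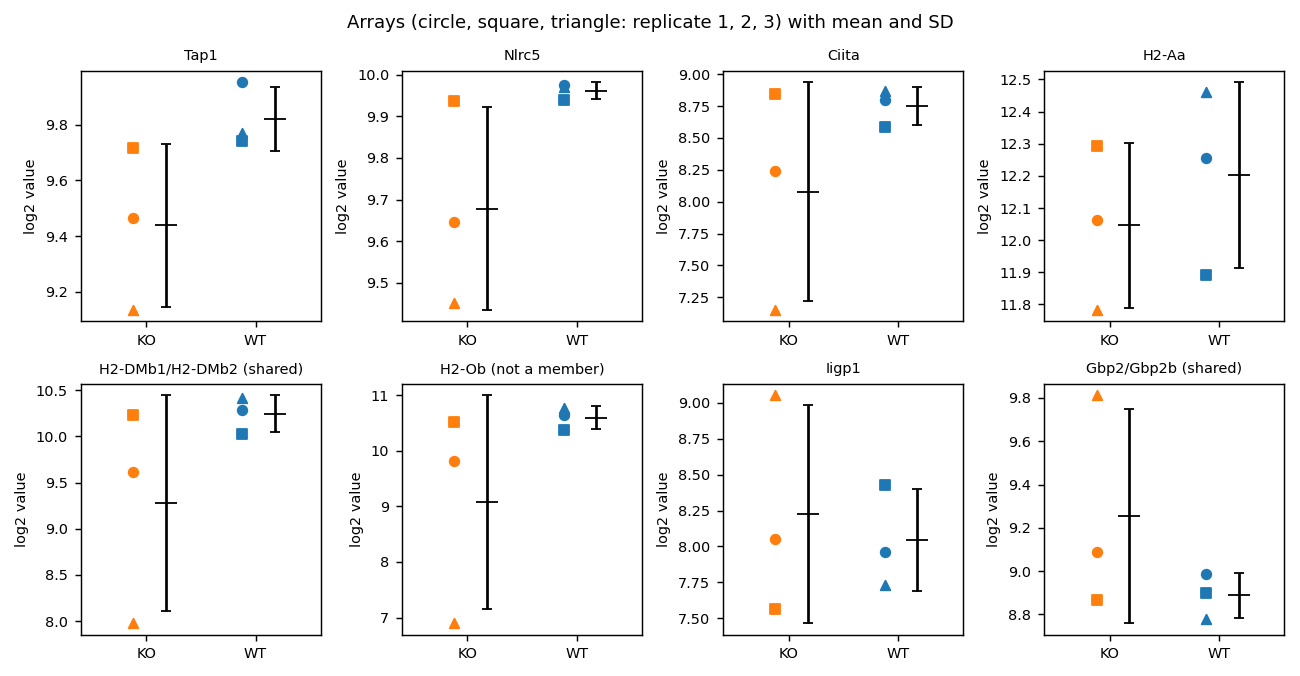
Log2 value in each array (symbols by replicate number, KO left of WT) with the group mean and SD (black) for 5 members and for H2-Ob, and for 2 probe sets shared between genes. KO replicate 3 (triangle) is the lowest array for Tap1, Nlrc5, Ciita, H2-Aa, the H2-DMb probe set and H2-Ob, and the highest for Iigp1 and the Gbp2 probe set, and the axes do not start at 0.

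Class I was set against class II in each array as a mean of centred values, B2m minus the 5 class II genes. The contrast was 0.07, -0.19 and 0.49 in KO, against -0.17, 0.13 and -0.32 in WT. Both groups held arrays above and below 0, and the highest value was that of KO replicate 3 and the lowest that of WT replicate 3. The group means were 0.12 ± 0.34 in KO and -0.12 ± 0.22 in WT (SD, n = 3 each), a difference of 0.24, which is within the spread between mice. Leaving out KO replicate 3 gave 0.06 and leaving out KO replicate 2 gave 0.40, and the contrast after adjusting for the lymphocyte score was -0.04. With the 2 shared heavy chain probe sets averaged in, a choice made after the annotation was seen, the contrast was 0.11, -0.17 and 0.48 in KO, against -0.11, 0.05 and -0.36 in WT. The class II level alone was -0.14, 0.14 and -0.41 in KO, against 0.12, -0.14 and 0.42 in WT. The lowest class II level among the WT arrays was that of replicate 2.

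The other cells that carry class II gave these values beside it. Dendritic cell markers stood at -0.06, 0.20 and -0.97 in KO, against 0.25, 0.11 and 0.47 in WT, with 7 of 9 markers lower in KO on average. Macrophage markers stood at 0.36, -0.20 and 0.07 in KO, against -0.11, -0.31 and 0.19 in WT, with 7 of 9 higher in KO on average. In KO replicate 3 the mean of the dendritic markers was thus low and that of the macrophage markers was not. Within the dendritic list, Cd209a and Zbtb46 were exceptions and lay inside their WT range in that array. Ccr7 weighed heavily on the dendritic mean, with 6.76 there against 10.46 to 10.67 in WT. Lyz2 was the exception in the macrophage list, at 11.65 there against 11.76 to 12.38 in WT. The lymphocyte score was lowest in the same array, and whether the dendritic level is separate from it was not tested. The part of dendritic cells and macrophages in the class II values was not tested either.

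**Figure D4:**
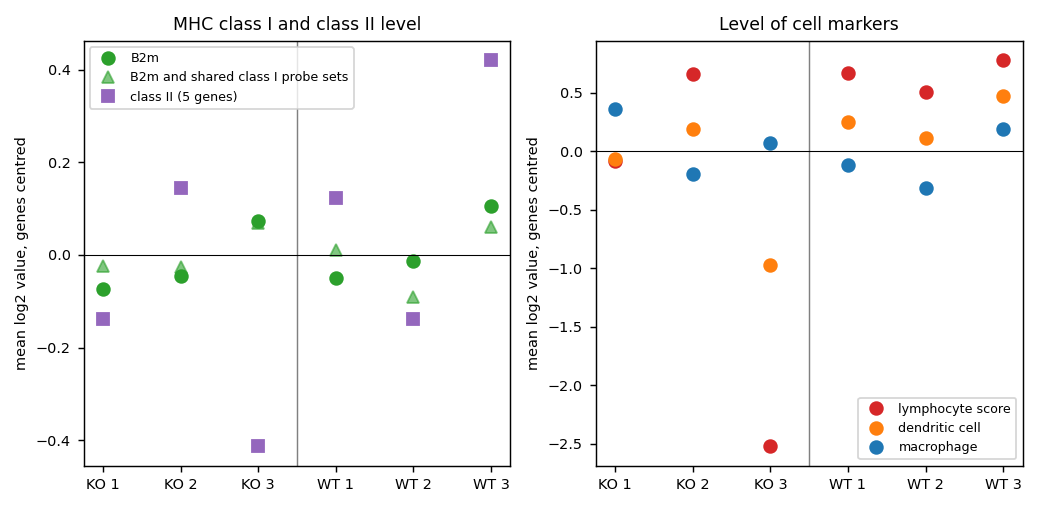
Mean centred log2 level per array (KO left of WT) of B2m, of B2m with the shared class I probe sets and of 5 class II genes in the left panel, and of lymphocyte, dendritic cell and macrophage markers in the right panel. Class II runs from -0.41 in KO replicate 3 to 0.42 in WT replicate 3, while B2m stays between -0.07 and 0.11.

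The guanylate-binding proteins had mostly lower means in KO, by small amounts. Of 6 measured genes 5 were lower, with differences of -0.27 for Gbp9, -0.27 for Gbp8, -0.23 for Gbp4, -0.19 for Gbp5 and -0.01 for Gbp7, while Gbp3 was at 0.07. Standard errors were 0.10 to 0.20, adjusted p-values 0.624 to 0.987, and all 6 genes had overlapping groups. Gbp9 read 7.92, 8.07 and 7.58 in KO, against 8.29, 8.09 and 8.01 in WT. Gbp7, near no difference, read 8.70, 8.63 and 8.87 in KO, against 8.86, 8.82 and 8.54 in WT. KO replicate 3 was low for Gbp9 and high for Gbp7. Without KO replicate 3 the differences of Gbp8 and Gbp9 were -0.09 and -0.13, and those of Gbp4 and Gbp5 were -0.20 and -0.17.

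Probe sets shared by several GBP genes did not follow the lower means. The one annotated to Gbp2 and Gbp2b read 9.09, 8.86 and 9.81 in KO, against 8.99, 8.90 and 8.78 in WT. KO replicate 3 was the high array and KO replicate 2 lay within the WT range, and the difference was 0.37 (SE 0.24, adjusted p 0.718 over all probe sets). A probe set annotated to Gbp6 together with Gbp4, Gbp8, Gbp9, Gbp10 and Gbp11 differed by 0.06 (SE 0.18). Gbp11, a relative outside the list with a probe set of its own, read 8.08, 7.49 and 8.51 in KO, against 7.47, 7.35 and 7.29 in WT. All 3 KO values were above all 3 WT values, as in 7.96% of all genes, with a difference of 0.66 (SE 0.24, unadjusted p 0.0279, adjusted p 0.622 from limma). GBP genes are close copies, so signal may be shared among them even where the annotation names 1 gene.

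The 2 IRG genes with their own probe sets showed no difference beyond the spread between mice. Iigp1, an effector that coats pathogen vacuoles, read 8.05, 7.56 and 9.05 in KO, against 7.96, 8.43 and 7.73 in WT. The KO arrays held both its highest and its lowest value. The Iigp1 difference was 0.18 (95% interval -0.69 to 1.05) and -0.23 without KO replicate 3. Irgm1, a regulator that keeps effectors off the cell's own membranes, read 8.45, 8.39 and 8.40 in KO, against 8.56, 8.53 and 8.21 in WT, a difference of -0.02 (SE 0.12).

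Igtp, Irgm2 and Tgtp1, whose promoters are shown above, were read only by shared probe sets. The probe set of Igtp and Irgm2 read 9.10, 9.00 and 9.53 in KO, against 9.15, 9.25 and 8.68 in WT. The Tgtp1 and Tgtp2 probe set 10385518 read 9.67, 9.98 and 9.13 in KO, against 10.16, 9.67 and 9.62 in WT. KO replicate 3 was the highest array in the first and the lowest in the second. Neither probe set gives a value for a single gene, so the values cannot be assigned to single promoters. Differences were 0.18 (SE 0.20) and -0.23 (SE 0.25), and the second Tgtp probe set, 10385533, was at -0.14 (SE 0.18).

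Of the remaining members, Socs1, the feedback inhibitor of the JAK kinases below the receptor, read 7.41, 7.62 and 7.15 in KO, against 7.58, 7.47 and 7.56 in WT. The groups overlapped, with a difference of -0.14 (SE 0.13) and of -0.02 without KO replicate 3. Ido1, which breaks down tryptophan, was dim in both groups, between 4.66 and 5.12 in KO and between 4.63 and 4.83 in WT, and differed by 0.12 (SE 0.14).

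Of 21 measured signalling genes and further targets outside the list, 14 had a lower mean in KO, with a median difference of -0.04. At an unadjusted p under 0.05 there were 2 lower and 1, Gbp11, higher, where 2.48% of all genes were lower and 4.99% higher. Irf8, a factor of B cells and myeloid cells that interferon-gamma induces, read 8.81, 9.28 and 7.74 in KO, against 9.49, 9.54 and 9.50 in WT, a difference of -0.90 (SE 0.35). Ptpn2, a phosphatase that damps JAK-STAT signalling, differed by -0.26 (SE 0.11). Neither gene had overlapping groups, where 5.97% of all genes had all KO arrays below all WT arrays, and both had an adjusted p of 0.622. Among 8 measured genes of the class I route outside the list, 5 had a lower mean, with a median difference of -0.06. H2-Q10, a secreted class I molecule, was the 1 at an unadjusted p under 0.05, where 4.99% of all genes were higher. Its difference was 0.45 (SE 0.19, adjusted p 0.622), and Mr1, which shows vitamin metabolites to T cells, differed by 0.33 (SE 0.15). In KO replicate 3 the values of H2-Q10 and Mr1 were the highest of all arrays, at 7.74 and 9.35.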

How the data were processed

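Per the submitters' processing notes, RMA, affy and limma made the deposited log2 values, 1 per probe set and array. Versions, options and the array annotation's build are not stated there. The scale was checked on the 34760 probe sets, which ran from 1.44 to 14.15. Of these, 21640 had 1 gene symbol, 1321 several and 11799 none. For a gene with several such probe sets the brightest on average was taken, and 19855 of 19937 genes matched RefSeq by Entrez identifier. KO and WT were compared with limma 3.58.1 in R 4.3.3 (lmFit, eBayes, two-sided, 6 arrays), with Benjamini-Hochberg adjustment over all genes and a threshold of 0.05. Probe sets shared by genes were tested over all probe sets. The fit was tested on simulated data. To give a list 1 level per array, its genes were centred over the 6 arrays and averaged. The mouse is the replicate.

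The members and lists were chosen with earlier results of these data known. That includes the cell markers. Named genes followed a rule: every measured member, with values per array for the smallest p, the largest p and the largest difference of a role (for the receptor and the further induced genes, the largest difference only), up to 3 genes of each further pathway list by p and up to 2 markers of a cell type. Ifng, H2-Oa, Ccr7 and the per-array values of Ifngr1 are outside it. Shared probe sets were added after the annotation was seen. Alternatives are given in the closing section.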

Additional observations from a re-analysis of the deposited data

How the results depend on the processing

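The labels do not say whether the replicate numbers pair mice across the groups. Deviations from the group means correlated at -0.14, -0.08 and -0.04 between arrays of the same number. Between arrays of other numbers they correlated at 0.0001 to 0.0947. Arrays of the same number were thus no more alike than the others, which does not settle the pairing. With the replicate block 1 member was lower at an unadjusted p under 0.05 and 0 members passed adjustment, so the block changed no call. In groups of equal size the block cannot move any difference. The median member difference of -0.15 and the class contrast of 0.24 were therefore fixed in advance in that setting. In all 13 alternatives 0 members passed adjustment over all genes. The count of members lower at an unadjusted p under 0.05, 1 with all arrays, was 0 to 9 without each array in turn, 5 with array weights and 0 after adjusting for the lymphocyte score. In the same settings the share of all genes that were lower was 0.963% to 8.47%, 6.65% and 1.64%, against 2.48% with all arrays. The median member difference was -0.25 to -0.10 without each array in turn. The class I minus class II contrast was 0.06 to 0.40 without each array in turn, -0.04 after that adjustment and 0.28 with the shared probe sets. From 21 to 25 members had a lower mean in KO in each alternative. The sign of the difference held in every alternative for 15 of 28 members, among them Tap1, Nlrc5, Cd74 and H2-DMa. The replicate block, leaving out dim genes and another variance prior do not change a gene's difference, so no sign could turn there. After adjusting for the lymphocyte score it turned for Ciita (0.0015), Tapbp (-0.0278), Psme2 (-0.0985), H2-Aa (0.0547), Gbp8 (0.0113), Iigp1 (-0.428) and Socs1 (0.0376). It also turned for Psme2 with array weights (-0.0207) and for Gbp7 with a common median (0.0037). Without single arrays in turn the difference ranged across 0 for Ifngr1 (-0.195 to 0.018), B2m (-0.0737 to 0.0158), Psme2 (-0.0605 to 0.0957), Gbp3 (-0.0835 to 0.177), Gbp7 (-0.107 to 0.0535), Irgm1 (-0.127 to 0.0498), Iigp1 (-0.234 to 0.510) and Ido1 (-0.0195 to 0.213). The cause was not tested. With 3 mice a group an exact permutation test cannot go below a p of 0.1.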
